A study of Mus musculus with 12 samples.

Results

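The activation response of CD8 T cells that lack Scap was measured on 6 of the 12 arrays of this study, by setting the 3 arrays of activated KO cells (T6) against the 3 of quiescent KO cells (T0). All 6 are named by genotype and time in their titles, and no measured value was used to choose them. The cells came from spleens of male mice and were purified with a kit that enriches CD8 T cells. KO mice had floxed Scap alleles and Cre expressed from the Cd4 promoter (Cd4-Cre/Scapfl/fl). The 6 arrays set beside them came from WT mice with the same Cre and intact Scap (Cd4-Cre/Scap+/+), so every group carries the Cre. This Cre acts during thymic development in T cells of both the CD4 and the CD8 lineage, while other spleen cells keep an intact Scap. T6 cells were stimulated for 6 h with anti-CD3 bound to the plate and anti-CD28 in the medium, which engage the T cell receptor complex and its main costimulator. The samples hold no cells kept 6 h without antibody, so stimulation and time in culture cannot be told apart. The labels call the arrays of a group biological replicates without saying how many mice each pooled, and the ages of the mice were not given, so p-values measure the spread between these samples.

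A naive CD8 T cell is small and metabolically quiet. Signals from the T cell receptor and CD28 first induce transcription factors of the EGR, NR4A, AP-1, NF-kB and IRF families, then chemokines, cytokines and their receptors, and then the machinery for growth: nutrient transporters, ribosome assembly, and the synthesis of nucleotides and lipids. Scap encodes the escort protein that carries the transcription factors SREBP1 and SREBP2 from the endoplasmic reticulum to the Golgi, where proteases release the part that switches on sterol and fatty acid genes. When sterols are plentiful, INSIG proteins hold SCAP in the endoplasmic reticulum, and oxysterols activate LXR, which induces cholesterol exporters.

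Signals were read as log2(signal + 16), and genes were tested with limma over 13158 genes, each read from its brightest probe set. Calls needed a p under 0.05 after Benjamini-Hochberg adjustment over all of them. KO arrays correlated across these genes at 0.972 to 0.980 within T0, at 0.965 to 0.984 within T6 and at 0.940 to 0.957 between the times. The first principal component of the 12 arrays, with 44.2% of the variance, separated T0 from T6. On the second, with 16.02%, KO T6 replicate 2 lay farthest out (-48.7), and it and KO T0 replicate 2 had the highest mean levels of erythroid markers. Without both KO arrays numbered 2, 1192 genes were called higher and 1158 lower at T6, against 1372 and 1374 with them.

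Scap itself was read by 1 tested probe set. In KO cells it stood at 11.27, 10.83 and 10.93 at T0 and at 11.11, 11.06 and 11.13 at T6. Its log2 difference of 0.09 (SE 0.14, adjusted p = 0.72) was not called, so the Scap signal of KO cells did not pass the test for a change on activation. WT arrays lay between 11.03 and 11.60. Which part of the gene these probes read, relative to the floxed part, was not analysed here, so the probe set may not check the deletion.

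KO cells answered activation with changes in 2746 of 13158 genes. At T6, 1372 genes (10.4% of those tested) were higher and 1374 (10.4%) were lower than at T0, together 20.9%. Of these, 356 rose (2.71%) and 467 fell (3.55%) by at least 2-fold, 90 rose (0.684%) and 96 fell (0.73%) by at least 4-fold, and 16 rose (0.122%) and 10 fell (0.076%) by at least 16-fold. The 3 T6 values did not overlap the 3 T0 values in 1364 of the called rises and 1362 of the called falls, and over all genes they did not overlap in 2482 rises (18.9%) and 2317 falls (17.6%). Tested singly and without a filter, 1774 (5.08%) of 34945 probe sets rose and 2201 (6.3%) fell. The median gene hardly moved (log2 -0.0036). For the gene lists that follow, 10.4% is the share of all genes that rose and also of those that fell. The lists were chosen with earlier results of these data known, so their shares are descriptions. Because whole populations were measured, a change in the share of a cell type and a change in RNA per cell cannot be told apart.

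Some genes crossed a low limit of signal between the times. With percentile 40 of an array as the limit (5.79 to 5.87 on the log2 scale over the KO arrays), 86 genes lay under it on every KO T0 array and above it on every KO T6 array, and 57 of them were called. Another 92 genes did the opposite, of which 77 were called. Over all genes 20.9% were called, but these genes were picked by a split between the times, which favours a call. Some crossings were small, as for Ppp2r2c, from 5.64 to 5.96 (limma adjusted p = 0.477), named outside the rule with its values in view. Among the rises were those of Il2, which encodes the T cell growth factor interleukin 2, and Fosl1, which encodes an AP-1 subunit. Their sizes depend on the added constant and have no order.

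**Figure D1:**
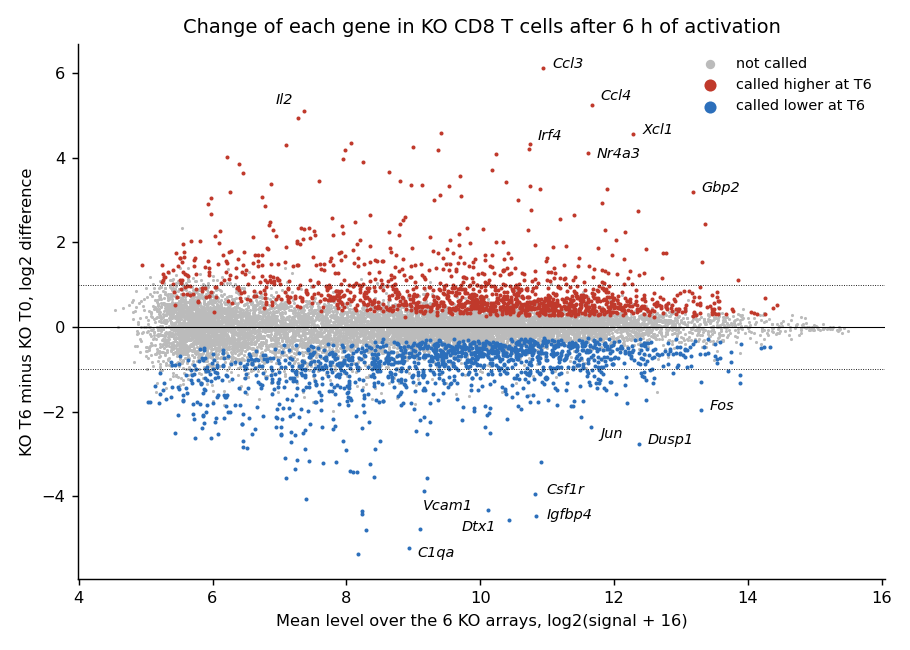
Change of each of the 13158 tested genes in KO cells (log2 T6 minus T0, vertical) against its mean level over the 6 KO arrays, as log2(signal + 16). Red points were called higher and blue points lower at T6, grey points were not called, and dotted lines mark a 2-fold change; Ccl3 (6.11) and Ccl4 (5.24) stand highest and the complement gene C1qa (-5.22) is among the lowest.

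Chemokines rose most. Of 10 chemokine genes tested, 8 rose and 1 fell, with a median log2 difference of 3.68 against -0.0036 over all genes. Ccl3, which encodes the inflammatory chemokine MIP-1 alpha, stood at 8.26, 7.14 and 8.27 at T0 and at 14.16, 13.66 and 14.18 at T6. The KO T0 replicate 2 value was lowest, and the 2 times lay far apart, by 68.9-fold (log2 6.11, SE 0.28, adjusted p = 9.1e-07). Ccl4, its close relative MIP-1 beta, stood at 9.25, 8.76 and 9.14 and then at 14.48, 14.02 and 14.37, a 37.9-fold rise. Xcl1, which attracts cross-presenting dendritic cells, lay between 9.97 and 10.05 at T0 and between 14.32 and 14.71 at T6, a 23.6-fold rise. Ccl1, a ligand of CCR8, rose by 4.34. Cxcl10 and Cxcl9, both interferon-induced ligands of CXCR3, rose by 4.26 and 3.11, Ccl22 rose by 2.18 and Ccl9 by 1.53, and both calls were lost without both KO arrays numbered 2 (adjusted p = 0.0582 and 0.0655), which left 6 chemokine rises. Cxcl16 stood at 0.34 (adjusted p = 0.297). Ccl5, the chemokine of effector and memory cells, was the member that fell, by 0.89 (adjusted p = 0.0433), from 12.73, 11.78 and 12.47 to 11.47, 11.24 and 11.60. That call held in 13 of 24 alternative settings, and it was lost without any 1 of the 3 KO T6 arrays.

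Cytokine genes rose in 13 of 19 cases (10.4% of all genes rose) and fell in 2, a share near the 10.4% of all genes that fell, with a median of 1.97. Il2 lay at 4.89, 4.81 and 4.76 at T0, which is background, and at 10.20, 9.32 and 10.25 at T6. The difference was 5.10 (SE 0.34, adjusted p = 1.0e-05), and its size depends on the added constant, from 3.74 to 6.18 over the alternatives. Ifng, the signature effector cytokine of CD8 T cells, rose from 8.62, 8.47 and 8.95 to 11.98, 11.87 and 12.44, which is 10.7-fold. Tnf rose 16.9-fold, from between 8.04 and 8.40 to between 11.73 and 12.63, with KO T6 replicate 2 lowest. Il3 rose by 4.01 from background (2.40 to 6.31 over the alternatives, by the added constant) and Il4 by 3.97, from between 5.77 and 6.11 to between 9.47 and 10.52. Il17a rose by 3.35, from 7.57 or less to between 10.14 and 10.88. The falls were those of Osm and Tnfsf10, named only to account for the count, outside the rule and with their values in view. Of these calls 1 was lost with the replicate block over 12 arrays, without both KO arrays numbered 2, without KO T0 replicate 1 or 3, or without KO T6 replicate 1 or 2. The TNF family ligands Tnfsf11 (RANKL) and Tnfsf14 (LIGHT) rose by 3.45 and 3.35.

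Mir155hg, the host transcript of the microRNA miR-155, was among the largest rises: it stood at 5.46, 6.16 and 6.05 at T0 and at 10.36, 9.77 and 10.04 at T6, 17.96-fold higher (log2 4.17, SE 0.25, adjusted p = 4.4e-06). The array read the host transcript, not the mature microRNA. The mature sequences that this transcript carries are shown from RefSeq (GRCm38.p6, plus strand, chr16:84714143-84714165 and chr16:84714182-84714202), with the seed, bases 2 to 8, in capitals.
mmu-miR-155-5p: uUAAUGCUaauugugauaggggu
mmu-miR-155-3p: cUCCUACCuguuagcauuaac

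Transcription factors of the early response mostly rose. Of 29 tested, 19 rose and 5 fell, with a median of 1.27. The rises held the NR4A receptors, which are read as markers of T cell receptor signal strength: Nr4a3 went from 9.48, 9.46 and 9.72 to 13.87, 13.42 and 13.71 (log2 4.11), while Nr4a2 rose by 2.92 and Nr4a1 by 2.74. The EGR zinc finger genes rose too, with Egr2 going from 9.06, 9.30 and 9.42 to 12.76, 12.21 and 12.57 (9.51-fold), Egr3 rising by 2.64, Egr1 by 0.95 and their corepressor Nab2 by 0.99. Irf4, which scales effector differentiation with receptor signal, rose by 4.21, from between 8.25 and 8.95 to between 12.60 and 12.96, and Irf8 rose by 1.45. NF-kB subunits rose, Rel by 2.13, Nfkb2 by 1.495 and Relb by 1.41. Tbx21, the effector factor T-bet, rose by 1.27, Bhlhe40 by 1.36, Nfil3 by 1.03 and Ikzf4 by 1.02. The calls of Nab2 and Nfil3 held in 19 and 22 of 24 alternative settings. That of Nab2 was lost on the 6 KO arrays alone, among others. Crem, a cAMP response factor, rose by 3.57 on its tested probe set.

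Myc, the main driver of growth in activated T cells, stood at 11.85, 11.84 and 11.73 at T0 and at 13.32, 12.77 and 13.14 at T6. That is 2.41-fold (log2 1.27, SE 0.13, adjusted p = 1.2e-04), with KO T6 replicate 2 lowest. Within AP-1 the members went opposite ways. Fosl1 rose by 4.94 and Fosl2 by 3.08, whereas Fos fell from 14.33, 14.10 and 14.41 to 12.35, 12.18 and 12.43 (log2 -1.97), Jun fell by 2.35, Fosb by 1.80 and Junb by 1.75. The inhibitor gene Id2 fell by 1.43. Those not called were Batf (-0.42), Batf3 (-0.79), Atf3 (0.54), Maff (0.62) and Nfatc1 (0.07), of which Maff was called with a replicate block on the 6 KO arrays (adjusted p = 0.0458). When all probe sets of a gene were averaged the rises were smaller by over 1.5 times for Nr4a3 (1.76), Crem (1.62), Egr3 (1.53), Ikzf4 (0.59) and Fosl1 (3.09), and each remained called.

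Surface molecules that steer the response rose in 12 of 25 cases and fell in 0, with a median of 0.53. Tnfrsf9, the costimulatory receptor 4-1BB, went from 8.85, 9.17 and 9.24 to 12.59, 12.34 and 12.30, a log2 rise of 3.32 (SE 0.12, adjusted p = 2.4e-07). Sema7a, a membrane-bound semaphorin, rose by 4.57. The inhibitory receptor gene Pdcd1 rose 8.02-fold and Cd274, which encodes its ligand PD-L1, rose similarly (log2 3.00), from between 8.87 and 9.28 to between 11.73 and 12.27. Slamf1 rose by 2.76 and Icos, a relative of CD28, by 1.46. Cd69, a textbook early activation marker outside the naming rule and chosen after its values were seen, stood at 12.25 ± 0.11 and 12.50 ± 0.20 (SD, n = 3) and was not called (adjusted p = 0.186).

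Cytokine receptors moved both ways, with 5 of 19 higher, 6 lower and a median of -0.15. Il2ra, the high-affinity chain of the interleukin 2 receptor, rose from 6.31, 6.04 and 6.56 to 10.50, 10.02 and 10.08, 14.9-fold. Il12rb1 rose by 1.56, Il15ra by 1.39 and Ifngr1 by 1.22. Il6ra, which marks naive cells, fell by 1.45 and Il27ra by 1.19, each with no overlap between the times. Leaving out the third T0 array left 2 falls, and 3 remained in number without the first T0 array, without the second T6 array or with the 6 KO arrays alone. Without that second T6 array the median was 0.04.

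Feedback regulators of signalling rose in 9 of 30 cases and fell in 6 (median 0.24). Rgs16, a regulator of G protein signalling, rose by 4.18 and Spry1, which restrains the RAS pathway, went from between 8.06 and 8.47 to between 11.64 and 12.37. The cytokine signal inhibitors Socs1 and Cish rose by 2.25 and 1.94, and Nfkbid, an atypical NF-kB inhibitor, rose by 2.04. Dusp1, a phosphatase that switches off MAP kinases, fell from 13.92, 13.55 and 13.79 to 10.70, 11.17 and 11.08, which is 6.82-fold lower. Only 3 fell without KO T0 replicate 1, without KO T0 replicate 3 or without KO T6 replicate 2.

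**Figure D2:**
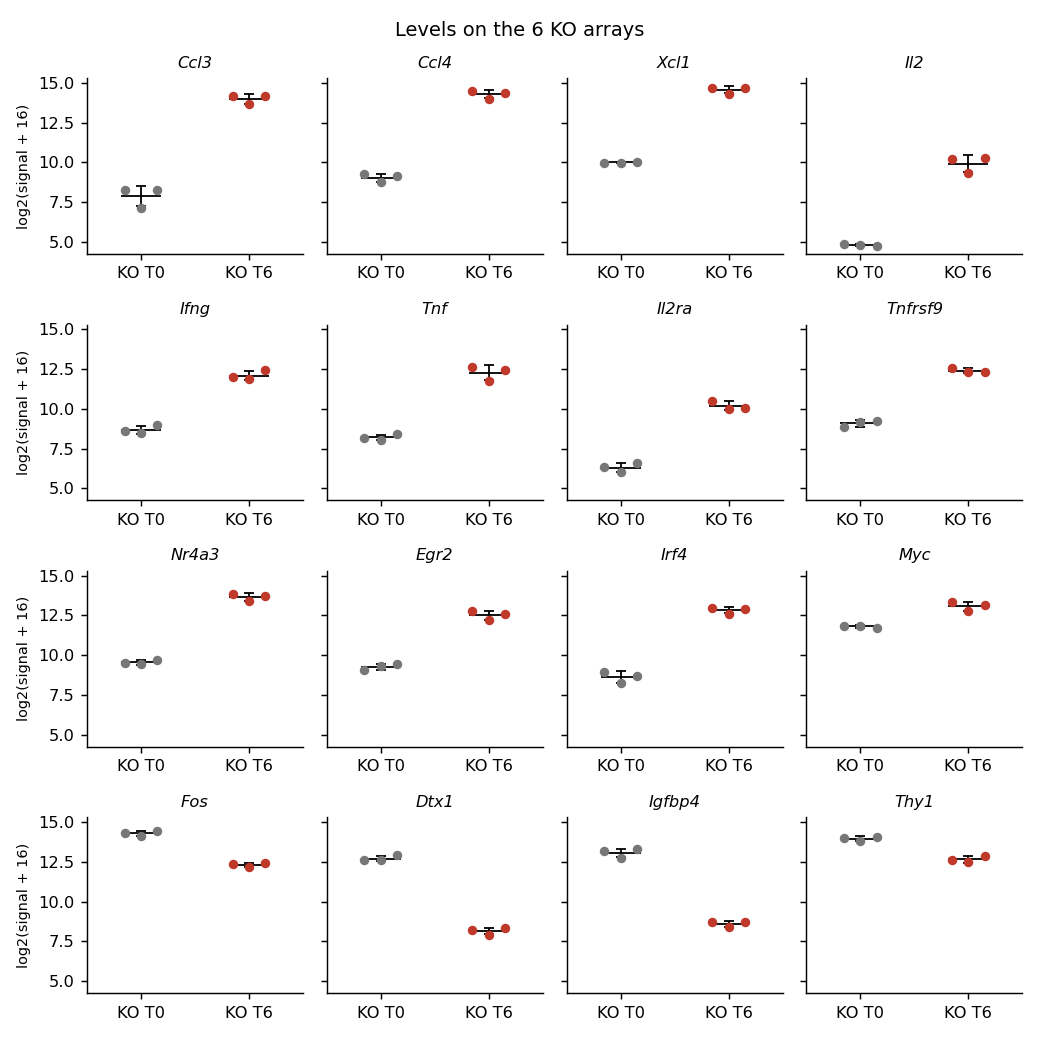
Level of 16 genes on each of the 6 KO arrays, as log2(signal + 16); points are arrays, the wide bar is the group mean and the whiskers are 1 SD (n = 3). In each panel the 3 T6 points (red) lie apart from the 3 T0 points (grey), above them for Ccl3 to Myc and below them for Fos, Dtx1, Igfbp4 and Thy1.

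Amino acid uptake rose in 7 of 14 cases and fell in 0, with a median of 0.73. Slc7a5, which with Slc3a2 forms the transporter of large neutral amino acids LAT1, went from 10.56, 11.09 and 10.33 to 12.39, 12.33 and 12.15, 3.10-fold (SE 0.17, adjusted p = 1.7e-04). Slc3a2 rose by 0.89. Slc7a1, an arginine and lysine carrier, rose by 1.61 (0.78 over the mean of its probe sets), and the glutamine carrier Slc1a5 rose by 0.92. Bcat1, which starts the breakdown of branched-chain amino acids, rose by 3.67, from between 6.76 and 6.89 to between 10.07 and 10.70. Serine and one-carbon metabolism, which supplies nucleotide precursors, rose in 5 of 12 cases and fell in 0 (median 0.51, and 0.23 without KO T0 replicate 2). There Shmt1 went from 8.71, 8.65 and 8.57 to 11.29, 10.57 and 11.05, 5.03-fold. The mitochondrial enzyme genes Mthfd2 and Shmt2 rose by 1.63 and 1.25 and the serine synthesis gene Psat1 by 1.31.

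Glycolysis genes rose in 6 of 18 cases and fell in 1 (median 0.32). Hk2, the inducible hexokinase, went from 8.57, 8.20 and 8.68 to 10.32, 10.06 and 10.34, 3.38-fold. Pfkfb3, which makes an activator of phosphofructokinase, rose by 1.05, Pgam1 by 0.75, Aldoa by 0.71 and Pgk1 by 0.51. Over the mean of its probe sets Pfkfb3 stood at 0.57 and Pgk1 was not called (adjusted p = 0.223). Of the 4 other Aldoa probe sets, 3 gave 0.74 to 0.82 and 1 gave -0.07. The glucose transporter gene Slc2a3 was the one that fell, by 0.76, and it was not called over the mean of its probe sets. Nucleotide synthesis rose in 6 of 19 cases (31.6%) and fell in 2 (10.5%, near the 10.4% of all genes), with a median of 0.14. Ctps, CTP synthase, rose by 0.84. Umps, UMP synthase, rose by 0.74 (0.44 over the mean of its probe sets, adjusted p = 0.133). Prps2 fell by 0.88 and Atic by 0.58. Of 7 polyamine genes 2 rose, Srm by 1.005 and Odc1, the first enzyme of the pathway, by 0.86. With a block for replicate number on the 6 KO arrays alone 0 of these 7 and 3 of the nucleotide genes rose (adjusted p = 0.0546 for Srm, 0.0571 for Odc1 and 0.0556 for Ctps), and 3 nucleotide genes rose without KO T0 replicate 1. Medians that turned on 1 array were those of the nucleotide list, 0.30 without KO T0 replicate 2, and of the polyamine list (0.33), which ran from -0.01 without KO T6 replicate 2 to 0.53 without KO T0 replicate 2.

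Ribosome assembly genes mostly rose. Of 38 genes tested, 34 rose (89.5%, against 10.4% of all genes) and 0 fell, and 37 lay above 0. The changes were small, with a median of 0.63 and a range from -0.04 to 1.19. Ncl, nucleolin, went from 13.92, 13.93 and 13.87 to 14.63, 14.57 and 14.61, which is 1.62-fold (log2 0.70, SE 0.08, adjusted p = 2.9e-04), and the values within a time differed by less than 0.1. Utp20, a part of the small subunit processome, went from 10.25, 10.24 and 10.21 to 11.25, 10.96 and 11.16. Pno1, a small subunit assembly factor, went from 10.98, 11.29 and 11.12 to 12.14, 11.79 and 12.09. Nop16 rose by 0.97, Rcl1 by 0.84 and Gnl3, nucleostemin, by 0.75. With a block for replicate number, 31 rose over 12 arrays and 14 over the 6 KO arrays alone.

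The E-box CACGTG, which MYC and related factors can bind, was searched on both strands of RefSeq promoters (250 bases before to 50 after the start site). It was present in 10 of the 33 ribosome assembly promoters in the table (30.3%) and in 1212 of 10631 promoters of tested genes (11.4%). The 10 were those of Grwd1, Imp4, Nop2, Pes1, Pno1, Rrn3, Tsr1, Utp20, Utp4 and Wdr43. Of these Wdr43 alone was not called, where 89.5% of the whole list rose. Genes here outside the naming rule were listed after their values were seen. The E-box was also in 3 of 15 sterol synthesis promoters (20%) and in 3 of 21 early transcription factor promoters (14.3%). The cAMP response element TGACGTCA, searched the same way, was in 1 of 21 early transcription factor promoters (4.76%). It was in 0 of the ribosome assembly and sterol synthesis promoters and in 361 of all 10631 (3.4%). A match is a description of the letters and not a shown binding site. The promoters of Pno1 (GRCm38.p6, chr11:17211540-17211839, minus strand) and Utp20 (chr10:88826765-88827064, minus strand) are printed with the E-box in capitals, as named members with the match, which in each begins 37 bases after the start site.
Pno1: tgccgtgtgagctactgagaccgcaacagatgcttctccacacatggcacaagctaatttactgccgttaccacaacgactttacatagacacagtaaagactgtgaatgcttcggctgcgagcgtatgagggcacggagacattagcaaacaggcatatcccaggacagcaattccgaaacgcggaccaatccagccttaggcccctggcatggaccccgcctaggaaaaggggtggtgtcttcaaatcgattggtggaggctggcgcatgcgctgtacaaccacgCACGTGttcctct
Utp20: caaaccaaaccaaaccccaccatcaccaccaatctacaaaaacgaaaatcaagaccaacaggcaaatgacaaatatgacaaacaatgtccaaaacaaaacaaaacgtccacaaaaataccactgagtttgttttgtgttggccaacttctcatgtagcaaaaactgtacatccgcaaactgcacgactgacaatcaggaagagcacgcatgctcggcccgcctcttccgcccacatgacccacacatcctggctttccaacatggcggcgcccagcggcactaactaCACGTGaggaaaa

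Sterol synthesis is the programme that SCAP serves, and part of it rose on the KO arrays. Transcripts of other spleen cells, which keep an intact Scap, were measured too. Their part in the changes below was not tested. Of 18 genes tested, 7 rose (38.9%, against 10.4% of all genes) and 2 fell (11.1%, near the 10.4% of all genes). The median was 0.20, and 0.11 to 0.31 over the alternatives, against 0.70 for the same genes in WT. Sqle, squalene epoxidase, stood at 8.31, 8.54 and 7.82 at T0 and at 9.14, 9.79 and 8.79 at T6 (log2 1.02, SE 0.25, adjusted p = 0.0162). Cyp51, lanosterol demethylase, went from 7.46, 7.55 and 7.87 to 8.79, 8.82 and 8.21 (0.98, SE 0.18, adjusted p = 0.0038), with KO T6 replicate 3 lowest. Idi1, which isomerises the isoprenoid unit, went from 9.39, 9.59 and 9.20 to 10.03, 10.77 and 9.82 (0.81), with KO T6 replicate 2 highest, and to 0.53 without that array. Hmgcs1, the synthase of HMG-CoA, went from 10.90, 10.70 and 11.04 to 11.47, 11.24 and 11.45 (0.51). Fdps rose by 0.88, Hsd17b7 by 0.81 and Msmo1 by 0.68.

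The sterol genes that fell were Dhcr7, the last reductase of the pathway, by 0.79, from 9.84, 9.80 and 9.40 to 8.82, 9.11 and 8.76, and Mvd by 0.77. Those not called were Fdft1 (0.70, adjusted p = 0.0673), Lss (0.25), Sc5d (0.16), Mvk (0.07), Ebp (-0.01), Nsdhl (-0.01), Pmvk (-0.10), Tm7sf2 (-0.12) and Ggps1 (-0.40), which was called with a replicate block over 12 arrays (adjusted p = 0.0408). The calls depended on the fit. On the 6 KO arrays alone 3 rose and 1 fell, and without KO T0 replicate 3 also 1 fell. With a replicate block on those 6 arrays 4 rose and 1 fell, and adjusted p was 0.0739 for Cyp51, 0.0672 for Fdps, 0.0968 for Msmo1 and 0.107 for Mvd. Over the mean of all probe sets of each gene 4 rose, and Hsd17b7 (0.18), Hmgcs1 (0.28), Fdps (0.29) and Msmo1 (0.37) were not called.

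The core of the sterol regulatory element, TCACCCCAC, to which SREBPs bind, was found on either strand in 1 of 15 sterol synthesis promoters (6.67%), that of Hmgcs1, and in 0.705% of the 10631 promoters. That promoter (GRCm38.p6, chr13:119690101-119690400, plus strand) is printed because Hmgcs1 is a known SREBP target in the list. The motif is in capitals and begins 137 bases before the start site.
Hmgcs1: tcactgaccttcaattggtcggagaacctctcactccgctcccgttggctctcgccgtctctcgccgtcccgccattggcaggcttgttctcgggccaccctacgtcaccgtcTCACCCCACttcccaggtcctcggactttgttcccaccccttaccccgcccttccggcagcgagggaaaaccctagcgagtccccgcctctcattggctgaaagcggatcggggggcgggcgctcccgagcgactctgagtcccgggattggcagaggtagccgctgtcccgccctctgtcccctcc

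Genes of sterol uptake and SREBP control moved little. Of 14 tested, 0 rose and 2 fell (14.3%, near the 10.4% of all genes), with a median of -0.03. Insig1, itself an SREBP target, stood at 9.55, 9.51 and 9.55 at T0 and at 9.77, 9.79 and 9.54 at T6 (0.16, adjusted p = 0.31). Srebf2, the SREBP of sterol synthesis, stood at 0.37 (adjusted p = 0.0684), Srebf1 at -0.09 and Tmem97 at 0.32. The lipid phosphatase gene Lpin1 fell by 0.77 and Mylip, an LXR-induced ligase that destroys the LDL receptor, by 0.46, a call kept in 16 of 24 alternatives and lost with a replicate block on the 6 KO arrays (adjusted p = 0.0891). The 2 falls became 0 without KO T6 replicate 1 and 1 without KO T0 replicate 1, KO T0 replicate 2, KO T6 replicate 3 or both arrays numbered 2, and 1 gene rose without KO T6 replicate 2. Fatty acid synthesis rose in 6 of 20 cases (30%) and fell in 3 (15%, against 10.4% of all genes each way), with a median of 0.02. Fasn, fatty acid synthase, went from 10.63, 10.78 and 10.80 to 11.85, 11.35 and 11.76 (0.91, adjusted p = 8.4e-04), and Acaca, which makes its substrate, rose by 0.77 (0.44 over the mean of its probe sets). Me1, which supplies NADPH, rose by 1.398 (0.86 with 64 added in place of 16) and Elovl1 by 0.60, while Acss2, which activates acetate, fell by 0.76. With the replicate block on 6 arrays 3 rose and 1 fell, and adjusted p was 0.053 for Me1, 0.0527 for Elovl1 and 0.0617 for Acss2, and without KO T6 replicate 1 the number that fell was 1.

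Among 10 LXR targets 7 were lower, 0 were higher and the median was -0.90. Of the cholesterol exporters, Abca1 went from 11.11, 10.62 and 10.87 to 9.17, 8.81 and 8.86 (-1.92, and -1.01 over the mean of its probe sets), and Abcg1 from between 11.34 and 11.39 to between 9.80 and 10.13. Apoe, the apolipoprotein of macrophages among other cells, fell most in the list, by 2.46, Apoc1 by 1.59 and Pltp by 0.65. Nr1h3, which encodes LXR alpha, fell by 1.05. Macrophage markers fell in the same contrast (given with the marker lists), and their part in these changes was not tested.

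The integrated stress response, which adapts cells to amino acid shortage, rose in 6 of 17 cases (35.3%). It fell in 2 (11.8%, near the 10.4% of all genes), and the median was 0.48. Wars, a tRNA ligase, went from 9.40, 9.34 and 9.29 to 11.34, 11.17 and 11.55, 4.02-fold. Trib3 and Chac1 rose by 2.11 and 1.88, and in both KO T6 replicate 2 was highest. Ddit4, an inhibitor of mTORC1, fell from 11.48, 10.76 and 11.19 to 9.22, 9.23 and 8.73, 4.23-fold lower. Median centring of the arrays gave 10 rises in this list. Chaperones of the endoplasmic reticulum rose in 3 of 21 cases and fell in 3 (14.3% each way, near the 10.4% of all genes, median 0.01), with Dnajb9 lower by 1.32 and Pdia6 higher by 0.65 (adjusted p = 0.067 with a replicate block on the 6 KO arrays). The 3 rises became 1 without KO T0 replicate 2, without KO T6 replicate 1, without KO T6 replicate 3 or with the KO arrays fitted alone, and 0 with a replicate block there. Of the 2 falls of the stress response 1 was left without any single T0 array, without KO T6 replicate 1, without KO T6 replicate 3, or on the KO arrays alone.

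Genes that set survival moved in part. Of 15, 4 rose (26.7%) and 2 fell (13.3%, near the 10.4% of all genes), with a median of 0.09. Bcl2l11, the death-promoting BIM, went from 11.21, 11.19 and 11.21 to 12.55, 12.50 and 12.57 (1.33, adjusted p = 1.0e-04), and Birc3, an inhibitor of cell death, rose by 1.32. Bcl2l1, the survival protein BCL-XL, rose by 0.64. Casp8 fell by 0.37 and Bid rose by 0.58. Their calls held in 10 and 17 of 24 alternatives, and neither was called with a replicate block (adjusted p = 0.0501 for Casp8 and 0.071 for Bid over 12 arrays). The falls numbered 0 without both KO arrays numbered 2, without KO T0 replicate 1, without KO T0 replicate 3 or without any 1 KO T6 array, and 1 without WT T0 replicate 1, WT T6 replicate 1 or WT T6 replicate 3. Without the first T6 array, or over the mean of probe sets, 2 rose.

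Among 33 cell cycle genes 1 rose, 1 fell and 31 were not called at 6 h. The median was -0.32, and 3 of the 33 lay above 0, against 6528 of 13158 over all genes. Cdkn1a, the cyclin-dependent kinase inhibitor p21, was the member that rose, from 7.68, 7.55 and 7.48 to 10.24, 10.07 and 10.22, 6.08-fold. Ccnd1, cyclin D1, fell by 1.15, from between 8.24 and 8.33 to between 6.83 and 7.58, a call lost without any 1 KO T0 array or without KO T6 replicate 1 or 3. Without KO T6 replicate 2 the number that fell was 4 and the median -0.82, and without KO T0 replicate 2 the median was -0.09. The mean level of the list was highest in replicate 2 at both times (11.26 and 11.38), against 10.12 to 10.81 on the other KO arrays.

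Interferon-responsive genes rose in 7 of 22 cases and fell in 0, and 21 lay above 0 (median 0.63). Gbp2, a guanylate-binding GTPase, went from 11.41, 11.54 and 11.78 to 14.75, 14.71 and 14.85, 9.13-fold (SE 0.10, adjusted p = 2.4e-07). Iigp1, an immunity-related GTPase, rose by 4.31, from between 8.38 and 8.98 to between 12.69 and 13.29. Gbp3 rose by 2.28, Oasl2 by 2.18, Zbp1 by 1.595, Irf1 by 0.81 and Stat2 by 0.64. A replicate block raised the count to 10 over 12 arrays and 11 over the 6 KO arrays, and it was 12 without WT T6 replicate 2. It was 5 without both KO arrays numbered 2, where Oasl2 was not called (adjusted p = 0.062), and Stat2 was not called over the mean of its probe sets (0.0627).

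Genes of the naive, quiescent and homing state held 13 falls among 28 (46.4%, against 10.4% of all genes) and 3 rises, and their median was -0.44. This list was chosen with earlier results of these data known, so its share of falls is a description and supports nothing. Dtx1, a NOTCH-regulated ligase, went from 12.59, 12.61 and 12.90 to 8.21, 7.92 and 8.32 (-4.55, SE 0.21, adjusted p = 9.1e-07; -2.57 over the mean of its probe sets). Igfbp4, which binds insulin-like growth factors, went from 13.15, 12.77 and 13.27 to 8.74, 8.39 and 8.69, a fall of 4.46. Ramp1 fell by 2.35 and Acp5 by 1.44 on the log2 scale, and Nsg2 was 2.64-fold lower. Bach2, which restrains effector differentiation, rose by 1.17 (0.69 over the mean of its probe sets). Ccr7, the lymph node homing receptor, is another choice made with its values in view, outside the naming rule. It stood at 12.96 ± 0.14 and 12.78 ± 0.18 (SD, n = 3, adjusted p = 0.435).

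The T cell receptor complex and identity genes held 7 falls among 15 (46.7%) and 0 rises, and their median was -0.44. Thy1 went from 14.01, 13.78 and 14.07 to 12.63, 12.46 and 12.87, 2.46-fold lower. The CD8 coreceptor genes Cd8b1 and Cd8a fell by 0.83 and 0.66, Cd3g by 0.70 and the signalling gene Themis by 0.98. All 15 markers were measured above the filter, with mean levels of 12.60 to 12.80 per array at T0 and 12.14 to 12.45 at T6, and Cd4 did not pass the filter. The arrays thus carry the defining transcripts of CD8 T cells, but 19 B cell, 23 myeloid and 11 erythroid markers passed the filter too, so transcripts of other spleen cells were also measured.

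Cytotoxic effector genes rose in 5 of 20 cases (25%) and fell in 3 (15%, against 10.4% of all genes each way), with a median of -0.02. Serpinb9, which shields killer cells from granzyme B, went from 9.77, 9.71 and 10.06 to 11.59, 11.72 and 12.02, 3.80-fold. Gzmb, granzyme B, rose by 1.06, from between 9.04 and 9.53 to between 9.83 and 10.64. Srgn, the granule proteoglycan, and Eomes each rose by 0.53, but Eomes was not called with a replicate block on the 6 KO arrays (adjusted p = 0.0725). Without both KO arrays numbered 2 Gzmb was not called (adjusted p = 0.093). Nkg7 and Ctsw, which encode a granule membrane protein and a protease, fell by 1.36 and 1.33. The 5 rises became 2 without KO T0 replicate 1, and 3 without KO T6 replicate 1, without KO T6 replicate 3 or without both arrays numbered 2.

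**Figure D3:**
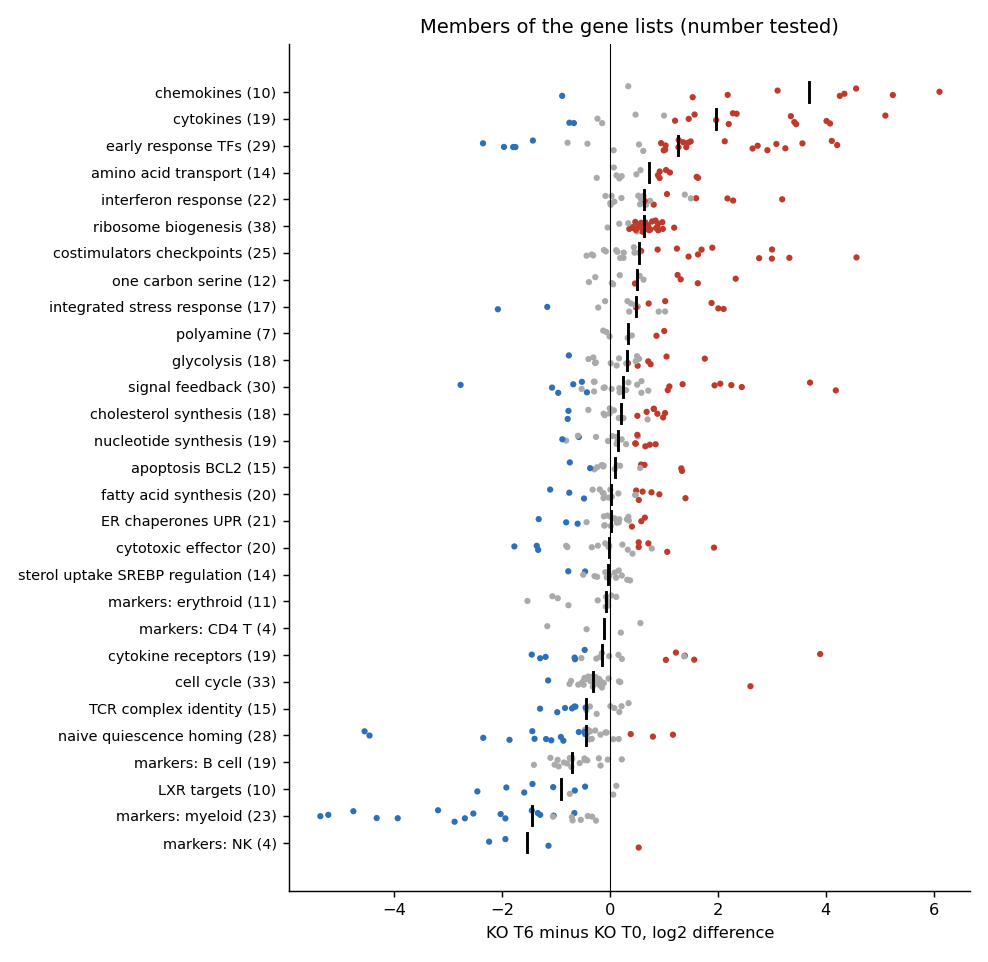
Log2 difference between T6 and T0 in KO cells for each tested member of 29 gene lists, with the number tested in brackets; red points were called higher, blue lower and grey not called, and the black bar is the median. Chemokines lie farthest to the right (median 3.68), ribosome biogenesis lies between -0.04 and 1.19, and myeloid and NK markers lie farthest to the left (-1.45 and -1.54).

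The largest falls were in genes of macrophages and other myeloid cells. Of 23 myeloid markers 16 fell (69.6%, against 10.4% of all genes) and 0 rose, with a median of -1.45. The complement gene C1qa went from 11.56, 11.60 and 11.46 to 6.18, 7.23 and 5.54 (-5.22, SE 0.37, adjusted p = 1.3e-05), and its partners C1qc and C1qb fell by 5.37 and 4.76. Csf1r, the receptor that macrophages need to survive, went from 12.92, 12.78 and 12.68 to 9.13, 9.26 and 8.18. Vcam1, an adhesion molecule of splenic macrophages and stroma, went from between 12.18 and 12.33 to between 7.73 and 8.21, 20.1-fold lower. The iron exporter gene Slc40a1 fell by 3.19, and KO T6 replicate 2 (10.70) lay above the other T6 arrays (8.61 and 8.63). Other genes of macrophages among the 25 largest falls were Mrc1 (-4.78), Adgre4 (-4.33), Cd163 (-4.06), Cd5l (-3.53), Mertk (-2.91) and Axl (-2.88, and -1.58 over the mean of its probe sets). Hpgd, which breaks down prostaglandins, fell by 4.42.

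The mean of the myeloid list per array was 10.38 to 10.97 at T0 and 8.20 to 8.74 at T6, without overlap (exact two-sided permutation p = 0.1, the smallest that 3 against 3 arrays allow). Of 9 NK markers listed 4 were tested. Klre1 fell by 1.14, Fcgr3 by 2.24 and Tyrobp, which is also on the myeloid list, by 1.94, whereas Eomes rose by 0.53. The mean of these 4 NK markers went from between 9.95 and 10.23 to between 8.71 and 9.13. Of 19 B cell markers 0 were called by limma, 18 lay below 0 and the median was -0.70 (-0.28 without KO T0 replicate 1). Their mean was 8.59 to 10.08 at T0 and 8.20 to 9.29 at T6, and with a replicate block 8 fell over 12 arrays and 9 over the 6 KO arrays. Of 11 erythroid markers 0 were called and the means, which follow replicate 2, ranged from 9.79 to 12.13 at T0 and from 9.19 to 12.41 at T6. Of the CD4 T cell markers 4 were tested and 0 called.

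For Actb, the signal of the 3' control probe set minus that of the 5' one, which grows as RNA is degraded or copied short, was 0.23 to 0.51 at T0 and 0.62 to 0.79 at T6 on the log2 scale, without overlap. For Gapdh the ranges, 0.00 to 0.30 and 0.15 to 0.36, overlapped. The part of the marker and RNA quality shifts in the changes of other genes was not tested.

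**Figure D4:**
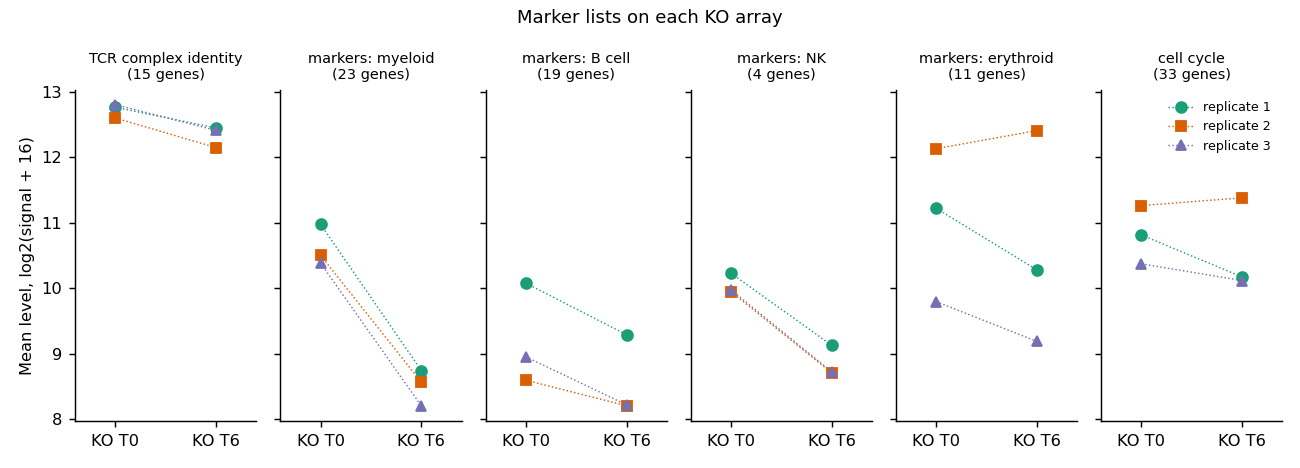
Mean level of the markers of 6 lists on each KO array, as log2(signal + 16); symbols are replicate numbers and dotted lines join arrays of the same number. The myeloid means drop from between 10.38 and 10.97 to between 8.20 and 8.74, while erythroid and cell cycle means are highest in replicate 2 at both times.

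The response of KO cells was then set against that of WT cells, which shares no array with it. In WT 1492 genes (11.3%) were higher and 1810 (13.8%) lower at T6. Of the 2746 genes called in KO, 78.0% were called in WT in the same direction, which is 64.8% of the 3302 WT calls, and 1 was called in the opposite direction. Across the 13158 genes the changes in KO and WT correlated at r = 0.840, and across the 823 genes called and changed by at least 2-fold in KO at r = 0.966, where 809 had the same sign. These are descriptions across genes, which are not independent replicates, and the second set was chosen on its KO values.

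The difference between the responses, tested as an interaction, was called for 0 genes in either direction (lowest limma adjusted p = 0.522). Without adjustment 604 genes had p under 0.05. A moderated fit with a mean trend and robust variances also called 0. Leaving out single arrays called 1 gene in each of 2 cases, Cep112 without WT T6 replicate 1 and 4930483J18Rik without KO T0 replicate 2. The standard error of a difference had a median of 0.245, against 0.173 for the KO change. On simulated data the test of the difference found 38% of genes that differed by 1 and 70% of those that differed by 2 on the log2 scale. The simulated noise was independent between arrays, without pairing or shifts in cell types, and few genes were changed. These percentages therefore may not hold for the measured arrays.

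The 10 genes with the smallest p for the difference were Wscd2, Bace1, Zc3h13, Asphd2, Prom2, Pgr, 4930483J18Rik, Zfand3, Mob3c and Fbxl4. Wscd2 fell by 0.64 in KO and by 1.79 in WT. Bace1, the beta-secretase, lay between 5.76 and 6.53 on all KO arrays, near background, and stood at 0.17 in KO and at -1.92 in WT (difference 2.09, adjusted p = 0.62). Zc3h13, part of the RNA methylation complex, fell by 0.60 in KO and stood at 0.17 in WT. None of these differences passed the adjustment. Myeloid means fell in WT from between 9.83 and 10.29 to between 7.16 and 7.81, and lay lower than in KO at both times. B cell means at T6 were 7.05 to 7.95 in WT and 8.20 to 9.29 in KO, and overlapped at T0. Erythroid means at T0 were 8.76 to 9.62 in WT and 9.79 to 12.13 in KO, and overlapped at T6. The 3' minus 5' signal of Actb at T6 was 0.45 to 0.54 in WT and 0.62 to 0.79 in KO, and overlapped at T0. The part of these shifts in the differences was not tested.

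The 95% intervals of the difference, here and for the sterol genes below, were set gene by gene without adjustment. For activation genes some were wide. The difference was -0.67 for Ccl3 (-1.54 to 0.21), -0.47 for Ccl4 (-1.04 to 0.09), 0.67 for Il2 (-0.41 to 1.74), 0.27 for Ifng (-0.42 to 0.96) and -0.11 for Myc (-0.52 to 0.29). It was 1.58 for Ccl22 and 1.04 for Il17a, neither called. Tnfrsf9 rose by 3.32 in KO and 3.88 in WT, a difference of -0.56 (95% interval -0.94 to -0.18, not called). Among the 356 called rises of at least 2-fold the median difference was 0.10 and 133 were below 0, and among the 467 falls it was -0.01 and 242 were below 0. These genes were chosen on their KO change, which favours a larger KO response, so the counts are a description and support nothing.

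Sterol synthesis was lower in its KO response for 17 of 18 genes, against 5686 of 13158 over all genes, with a median difference of -0.26. None of the 18 differences was called, and 4 had an unadjusted limma p under 0.05. Cyp51 rose by 0.98 in KO and by 2.10 in WT, a difference of -1.12 (SE 0.25, 95% interval -1.69 to -0.55). Idi1 rose by 0.81 and 1.87, a difference of -1.06 (95% interval -1.72 to -0.40). Hmgcs1 rose by 0.51 and 1.07, a difference of -0.57 (95% interval -0.93 to -0.21). Sc5d stood at 0.16 in KO and 0.69 in WT, a difference of -0.53. For Sqle the difference was -0.30 (95% interval -1.09 to 0.48), and for Fasn, on the fatty acid list, -0.16 (-0.56 to 0.25). Ribosome assembly genes had a median difference of -0.08, with 31 of 38 below 0 and 0 called. Interferon-responsive genes had one of 0.21, with 1 of 22 below 0 and 0 called. Chaperones of the endoplasmic reticulum were lower in their KO response for 17 of 21 genes, with a median difference of -0.22. Their median change was 0.01 in KO and 0.33 in WT. Of these 21 differences 0 were called and 4 had an unadjusted limma p under 0.05. A lower KO response was thus not particular to the sterol list.

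**Figure D5:**
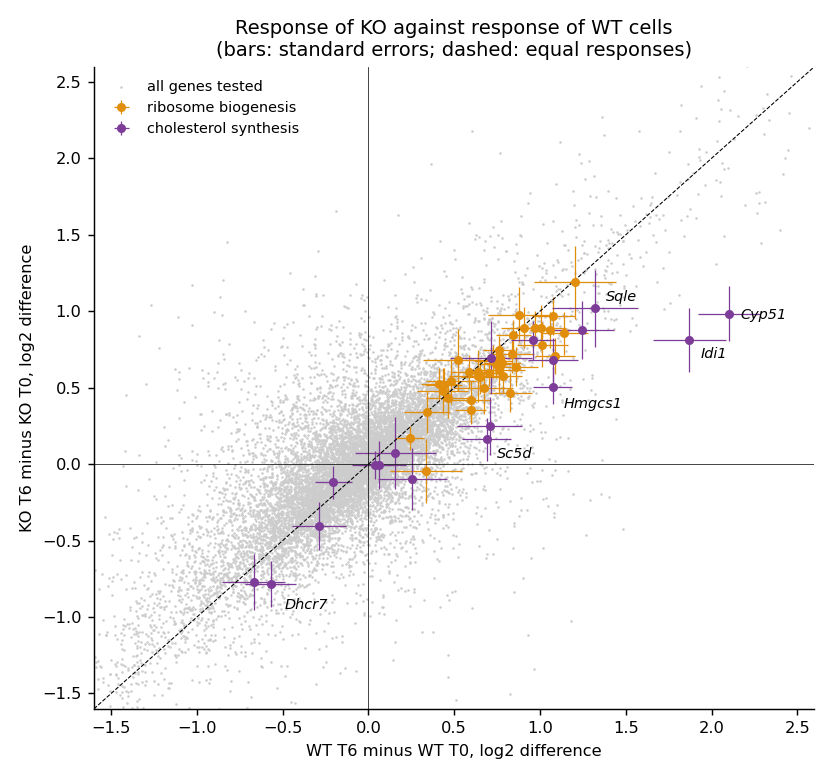
Change on activation in KO cells (vertical) against that in WT cells (horizontal), both as log2 T6 minus T0, for all tested genes within the plotted range (grey), 38 ribosome biogenesis genes (orange) and 18 cholesterol synthesis genes (purple); bars are standard errors and the dashed line marks equal responses. Cyp51, Idi1 and Hmgcs1 lie below the line (0.98 against 2.10, 0.81 against 1.87 and 0.51 against 1.07), while ribosome biogenesis genes lie near it.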

How the data were processed

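The deposited values are intensities: the authors gave a linear signal intensity per probe set, made with Affymetrix GCOS per the submitters' processing notes, which state no version. The labels do not say how background or probe summaries were computed. Each array had the same mean, 500.003, once its lowest and highest 2% were left out, so arrays had been scaled, and array medians were 61.3 to 76.2. The table held 45101 probe sets, of which 34945 carried 1 gene symbol, 932 several and 9160 none, beside 64 controls. Symbols were updated to RefSeq (GRCm38.p6) through gene IDs for 34741 probe sets and gave 18193 genes. From these, log2(signal + 16) was computed with no further normalization. The added 16 understates changes of dim genes. A gene was read from its 1-symbol probe set of highest mean and kept if 3 or more of the 12 arrays had it above their percentile 40. Precision is limited by the small number of arrays.

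The tests used lmFit and eBayes of limma 3.58.1 (R 4.3.3, two-sided) with 1 coefficient for each of 4 groups of 3 arrays, which share 1 estimate of the spread (8 residual degrees of freedom). SE is the standard error of that fit. On simulated data, where 200 of 13158 genes were changed, the test found 20%, 62%, 80% and 100% of KO changes of 0.5, 1, 2 and 4 on the log2 scale, with 13 false calls, and 4%, 38%, 70% and 92% of differences between genotypes, with 8 false calls. The simulated noise was drawn independently for each array, unlike the KO arrays, which deviated together by replicate number. Marker means were compared with exact permutation tests.

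The genes compared and the 29 gene lists were chosen with earlier results of these data known. Of 588 list entries, 543 had a 1-symbol probe set. List members Il21, Acacb, Scd3, Vldlr, Cd4, Itgam, Ncr1, Klra8 and Hba-a1 were measured but did not pass the filter. Named genes are the 25 largest rises and 25 largest falls among called genes whose KO groups do not overlap and whose higher mean exceeds the median level (8.98), as many as 6 genes of lowest p in any list, every member of the sterol synthesis, sterol uptake, transcription factor and chemokine lists, the 10 smallest p of the difference, and Scap. Other processing settings and each left-out array were tried as alternatives.

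Replicate numbers are shared by the titles of T0 and T6. After subtraction of group means, KO arrays of the same number correlated across genes at 0.18, 0.46 and 0.38 and those of unlike number at -0.40 to 0.14, so the number was taken to pair the KO arrays. In WT the same numbers gave 0.23, -0.06 and -0.11. The reported p-values, standard errors and counts came from the fit without pairing by number, and the replicate block was an alternative. For genes with printed values, the block value is given where it ended or made a call.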

Additional observations from a re-analysis of the deposited data

How the results depend on the processing

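Over 24 alternative settings 0 genes were called in the direction opposite to the reported one. Medians of lists near 0 changed sign in some settings: cytokine receptors reached 0.04, polyamine -0.01, fatty acid synthesis -0.10, cytotoxic genes 0.22, sterol uptake 0.03, endoplasmic reticulum chaperones -0.02 and erythroid markers 0.48. Genes called higher ran from 944 to 1402 and lower from 973 to 1339 when 1 array was left out (1372 and 1374 reported). The lowest count came from a replicate block on the 6 KO arrays alone, with 848 higher and 1059 lower, and the same 6 arrays without the block gave 918 and 998. Over 12 arrays the replicate block gave 1296 and 1369, of which 1147 and 1171 were the reported genes. Single probe sets called numbered 3975, and 2222 on the 6 KO arrays and 961 with the replicate block there. Of 196 called genes among the 252 named, the block over 12 arrays lost 3 and gained 6 others, and that on 6 arrays lost 21 and gained 6. Median centring moved the share of rises among the calls from 49.96% to 58.4%, and it gave 1443 rises and 1028 falls. The difference between genotypes was called for 0 to 1 genes when 1 array was left out (Cep112, 2.50, adjusted p = 0.0269, and 4930483J18Rik, 2.32, adjusted p = 0.0307). Changes of genes near background, such as Il2, depend on the added constant.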
